A study of Arabidopsis thaliana with 8 samples.

Results

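The subject is a group of 26 probe sets whose signal differed at least 2-fold between replicates 4 and 3 in the same direction in both genotypes of an Arabidopsis thaliana rosette study. A probe set is the group of short probes on the array that measures a transcript. The 26 were picked from 4788 probe sets that averaged a signal of 100 or more on the 8 arrays, out of 8247 on the array without controls. Of the 26, 11 were higher in replicate 4 than in replicate 3 and 15 were lower. With the arrays centred on their medians the rule chose 26 again, 8 higher and 18 lower, of which 23 were among these. The probe sets of COR15B, KIN2 and AT2G20870 were kept out by name, which removed 1 probe set, of COR15B. A further exclusion, of probe sets whose genotype ranges did not overlap, removed 0.

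The study set the mutant yda-2, with an allele of the gene YODA whose MAP kinase kinase kinase restrains the formation of stomata, against wild type (WT), with 4 arrays of each genotype. Plants of both genotypes grew on potting mix under constant light at 22 °C, and shoots were collected as rosettes that had not bolted. The replicates of a genotype came from different growth and harvest times, per the labels. The labels name neither the accession nor the age in days, and they do not say which harvest came first. Same-numbered arrays of the genotypes are treated as 1 harvest, because same-numbered arrays deviated together from the genotype means, with correlations of 0.577, 0.324, 0.296 and 0.596 for replicates 4, 3, 2 and 1 over the probe sets. That correlation also holds what the arrays of replicates 4 and 3 share against those of replicates 2 and 1. It therefore cannot show which of replicates 4 and 3 in yda-2 belongs with which in WT. The replicate 4 minus replicate 3 differences of the genotypes correlated at 0.0506, so the pairing of these arrays remains an assumption.

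Plants of one genotype raised at different times differ in many transcripts, because light, temperature, handling, watering and developmental stage all act on gene expression. Transcripts known to respond within minutes include those of WRKY and zinc finger transcription factors, which are induced by touch, wounding and microbes. Expansin transcripts follow the growth of cells, and transcripts of the photosystems are among the most abundant in a green leaf.

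The arrays differed in their highest signal. The highest signal on an array was 6226 and 6969 in yda-2 replicates 4 and 3 and 7857 and 10422 in WT replicates 4 and 3, against 22519 and 33920 in yda-2 replicates 2 and 1 and 26071 and 30768 in WT replicates 2 and 1. WT replicate 2 stood apart, with a mean correlation of 0.819 with the other arrays, against 0.873 to 0.903 for the remaining 7. It took no part in the choice of members except through the filter and the overlap of ranges. Named leaf genes were present, with 5 leaf marker genes tested at mean signals from 1172 to 13239, while the root marker BGLU21 lay between 3.5 and 46.7 on the 8 arrays. No flower or seed marker of the lists has a named probe set here. In whole shoots, fewer cells of a type and less RNA per cell cannot be told apart.

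Only 9 of the 26 probe sets have a gene in the annotation used here, 3 among the higher and 6 among the lower. The other 17 are given by their identifier, since no gene is paired with them. By the manufacturer's naming, a suffix of _s_at or _f_at marks probe sets whose probes can match transcripts of several genes, so signals of such members can mix related genes. The mean signal lay between 112.2 and 2996 in the higher group (median 582.5) and between 100.8 and 11136 in the lower group (median 1129), against a median of 419.1 over all tested probe sets.

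**Figure D1:**
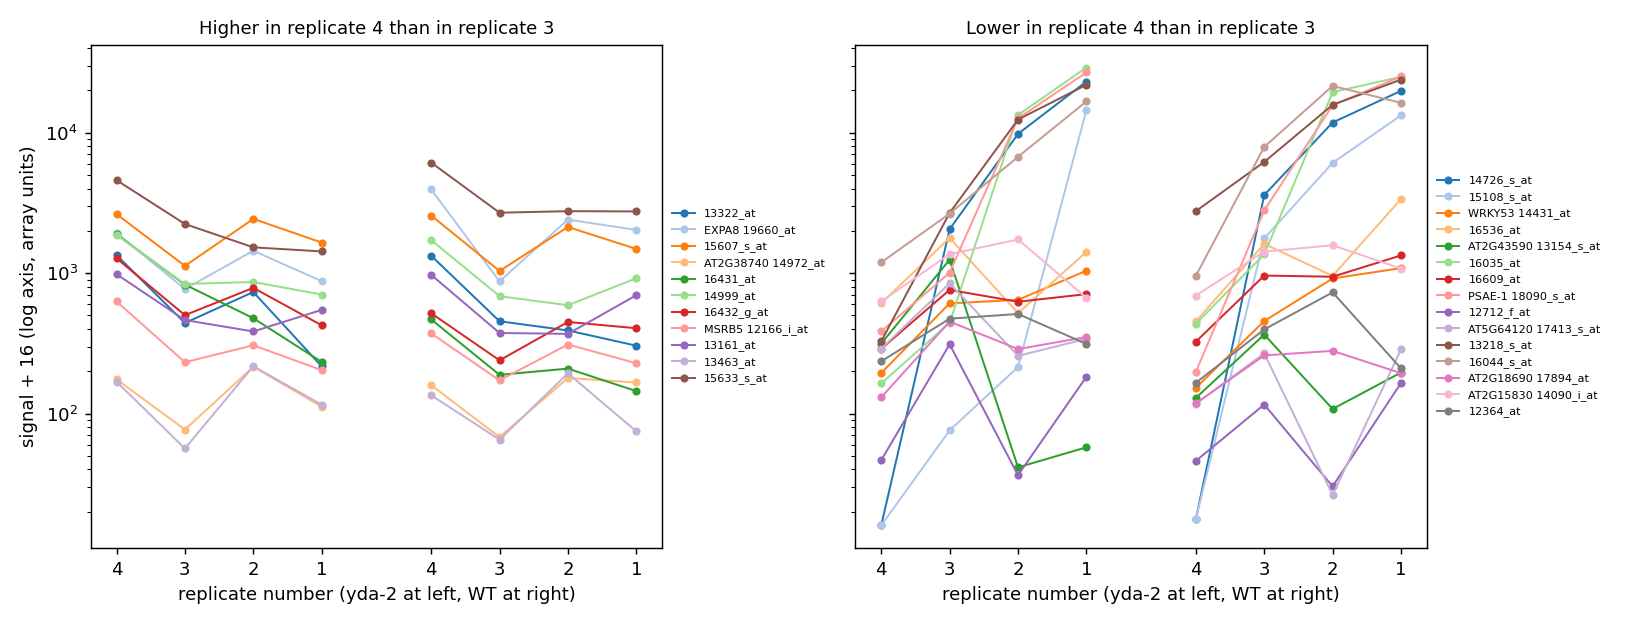
Signal plus 16 (log axis, array units) of the 11 members higher in replicate 4 (left) and the 15 lower in replicate 4 (right), for the arrays of yda-2 and then WT, each in the order 4, 3, 2, 1; lines only join arrays of a genotype. On the left replicate 4 is above replicate 3 in every line, as the rule requires, and on the right 14726_s_at drops to 0.0 in yda-2 replicate 4 and 1.7 in WT replicate 4.

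Few probe sets differed the same way in both genotypes between replicates 4 and 3. Between replicates 4 and 3, 253 probe sets (5.28%) differed at least 2-fold in yda-2 and 289 (6.04%) in WT, on the scale of log2(signal + 16). Of these, 27 went the same way in both genotypes, which is 0.564% of the tested probe sets (0.251% higher and 0.313% lower in replicate 4), 10.7% of the yda-2 set and 9.34% of the WT set. Another 16 (0.334%) went opposite ways. Across all tested probe sets the replicate 4 minus replicate 3 differences of yda-2 and WT correlated at 0.0506, a description over probe sets that share arrays. Calling the group harvest-dependent in both genotypes goes further than these arrays, since each difference rests on 1 array per side and has no test. The values that follow for replicates 4 and 3 chose the members and are given as a description.

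EXPA8 (AT2G40610), which encodes an expansin that loosens the cell wall during growth, had the widest minimum difference among named members of the higher group. Its signal in yda-2 was 1909.3, 754.2, 1426.2 and 859.7 in replicates 4, 3, 2 and 1. In WT it was 3926.1, 857.1, 2387.3 and 2013.5 in the same order. Replicate 3 was the lowest array in both genotypes and replicate 4 the highest, and yda-2 lay below WT in each of the 4 pairs. The replicate 4 minus replicate 3 difference was 1.32 in yda-2 and 2.17 in WT on the log2 scale. Of 8 cell wall and tubulin genes tested, EXPA8 was the only member. In each genotype 1 of the 8 probe sets passed 2-fold, that of EXPA8. Over all 4788 tested probe sets, 171 passed upward in yda-2 and 176 in WT. The medians of the list, 0.37 in yda-2 and 0.10 in WT, stood against 0.09 and 0.03 over all tested probe sets.

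MSRB5 (AT4G04830) encodes a methionine sulfoxide reductase, an enzyme that repairs oxidised methionine in proteins. Its signal was 611.9, 216.0, 290.3 and 187.8 in yda-2 replicates 4, 3, 2 and 1. In WT it was 356.2, 156.4, 294.2 and 212.2. Replicate 4 was the highest array in both genotypes. The third named member, AT2G38740, encodes a protein of the haloacid dehalogenase-like hydrolase family. It had 159.4, 60.9, 199.2 and 95.8 in yda-2 and 143.2, 52.0, 163.2 and 150.4 in WT, in the same order. Here replicate 3 was the lowest array in both genotypes and replicate 2, not 4, the highest.

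Among members with no gene name, 13322_at had the widest minimum difference of the higher group. It was at 1326.8, 425.5, 717.5 and 200.6 in yda-2 and at 1314.4, 438.0, 374.6 and 288.2 in WT, so the genotypes nearly coincided in replicates 4 and 3. Probe set 15607_s_at was at 2615.0, 1108.4, 2416.3 and 1633.5 in yda-2 and at 2553.7, 1019.5, 2114.6 and 1469.4 in WT, again close to each other in every pair. Probe set 16431_at differed from these, at 1871.1, 812.3, 461.2 and 217.0 in yda-2 and 452.4, 172.7, 192.9 and 128.5 in WT. Its yda-2 signal was above WT in 4 of 4 pairs, yet the 2 ranges overlapped because the harvests differed so much. The neighbouring identifier 16432_g_at, at 1257.7, 485.7, 769.1 and 408.9 in yda-2 and 501.8, 223.3, 432.9 and 389.1 in WT, also had yda-2 above WT in 4 of 4 pairs. Neighbouring identifiers of this form can measure the same gene, as 18216_at and 18217_g_at do for STZ. With no gene paired to 16431_at and 16432_g_at, they may be the same transcript, and counts of the higher members hold both.

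The remaining 4 higher members had replicate 4 minus replicate 3 differences between 1.04 and 1.58. Probe set 14999_at was at 1852.7, 820.7, 848.4 and 687.5 in yda-2 and 1703.7, 668.8, 574.4 and 903.3 in WT. Probe set 13161_at was at 965.8, 447.3, 368.0 and 531.2 in yda-2 and 956.3, 358.7, 353.2 and 679.7 in WT. In both, replicate 4 stood above the other 3 arrays of its genotype. Probe set 13463_at, at 152.5, 40.4, 201.1 and 99.6 in yda-2 and 118.9, 49.2, 177.4 and 58.7 in WT, was highest in replicate 2 instead. Probe set 15633_s_at was at 4572.9, 2220.1, 1509.1 and 1410.3 in yda-2 and 6107.8, 2675.9, 2743.5 and 2731.9 in WT. Its yda-2 signal was below WT in each pair, and in WT the arrays of replicates 3, 2 and 1 lay close together.

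Over the 11 higher members, the differences ran from 1.04 to 1.60 in yda-2 (median 1.23) and from 1.05 to 2.17 in WT (median 1.31). Replicate 4 was the highest of the 4 arrays in both genotypes for 9 of the 11, against 13.8% of all tested probe sets, a comparison to which the rule itself contributes by placing replicate 4 above replicate 3. The member just inside the threshold was 15633_s_at, at 1.04 in yda-2 and 1.19 in WT, followed by 13463_at at 1.58 and 1.05. Just outside lay AT2G38610, at 0.98 in yda-2 and 1.40 in WT, and 15147_s_at at 0.98 and 1.26.

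In the lower group 6 of the 15 members have a gene name, and 1 of the 15, WRKY53, is on a stress list. WRKY53 (AT4G23810), a transcription factor gene active in leaf senescence and defence, was the named member with the widest minimum difference. Its signal was 178.4, 592.5, 628.9 and 1024.3 in yda-2 replicates 4, 3, 2 and 1. In WT it was 136.4, 439.6, 899.5 and 1068.6. The order of the harvests was the same in both genotypes, with replicate 4 lowest and replicate 1 highest, and the genotypes overlapped. The replicate 4 minus replicate 3 difference was -1.65 in yda-2 and -1.58 in WT.

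AT2G43590 encodes a protein of the chitinase family, enzymes that can degrade fungal cell walls. Its probe set 13154_s_at was at 298.6, 1230.0, 25.4 and 41.5 in yda-2 replicates 4, 3, 2 and 1 and at 113.2, 348.9, 91.8 and 179.8 in WT. Replicate 3 was the highest array in both genotypes. A second probe set of the gene, 13153_r_at, had its highest value in replicate 3 too, at 157.6, 509.8, 5.1 and 83.0 in yda-2 and 137.2, 228.9, 81.3 and 80.2 in WT. Its replicate 4 minus replicate 3 difference was -1.60 in yda-2 but -0.68 in WT, short of the threshold, so the gene is a member by 1 of its 2 probe sets.

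AT5G64120 encodes the class III peroxidase PRX71, a secreted enzyme that acts on cell wall phenolics and hydrogen peroxide. It was at 273.6, 830.4, 241.3 and 324.2 in yda-2 and at 101.5, 252.2, 10.3 and 270.6 in WT, in the order 4, 3, 2, 1. yda-2 was above WT in all 4 pairs. The WT replicate 2 value of 10.3 lies below the pseudocount of 16, on the array that stood apart. AT2G18690 was at 114.4, 435.4, 271.8 and 334.8 in yda-2 and at 102.1, 243.4, 263.5 and 177.8 in WT, and replicate 4 was its lowest array in both. AT2G15830 lay close to the threshold, with differences of -1.12 in yda-2 and -1.04 in WT. Its probe set 14090_i_at was at 611.8, 1348.4, 1719.6 and 650.0 in yda-2 and at 675.4, 1407.0, 1561.6 and 1061.7 in WT. The other probe set of that gene, 14091_r_at, differed by -0.54 in yda-2 and -0.23 in WT.

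Probe set 12364_at lay nearest the threshold in the lower group, with differences of -1.01 in yda-2 and -1.26 in WT. Its signal was 219.4, 457.7, 495.7 and 297.0 in yda-2 and 149.5, 381.1, 713.1 and 193.6 in WT, so replicate 4 was lowest and replicate 2 highest in both genotypes. Just outside were AT4G36500, at -1.77 in yda-2 and -0.99 in WT, and 16539_s_at, at -1.01 and -0.98.

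WRKY53 belongs to a list of touch and rapid stress genes, of which 4 were tested with 5 probe sets. The others were WRKY6, a transcription factor gene of senescence and defence, EXO, a gene of cell expansion, and STZ, a zinc finger repressor induced by many stresses. All 5 probe sets were lower in replicate 4 than in replicate 3 in both genotypes, as were 20.7% of all tested probe sets. The rule fixed that direction for WRKY53, and 2 of the 5 measure STZ, so nothing is read from the share. Past 2-fold downward were 2 of the 5 in yda-2 and 3 in WT, with WRKY53 among them by the rule. Over all 4788 tested probe sets, 82 passed downward in yda-2 and 113 in WT. The medians of the list, WRKY53 included, were -0.91 in yda-2 and -1.37 in WT, against 0.09 and 0.03 over all tested probe sets. EXO (14077_at) showed the difference in WT most, at 1542.6, 2727.3, 1265.8 and 1870.1 in yda-2 replicates 4, 3, 2 and 1 and 881.3, 3442.5, 892.6 and 1835.1 in WT. Replicate 3 was its highest array in yda-2 and in WT. Between replicates 2 and 1, which took no part in the 2-fold thresholds of the rule, 9 of the 10 differences of these probe sets were below 0. Among all tested probe sets, 25.6% were lower in replicate 2 in both genotypes. The 10 differences come from 4 shared arrays and include both STZ probe sets, so nothing is read from this count either. None of the 5 passed in limma for replicate 2 minus replicate 1. The nearest was WRKY6 (13115_at), with a log2 difference of -1.10 (SE 0.41, adjusted p = 0.165), and WRKY53 had -0.47 (SE 0.35, adjusted p = 0.664).

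**Figure D2:**
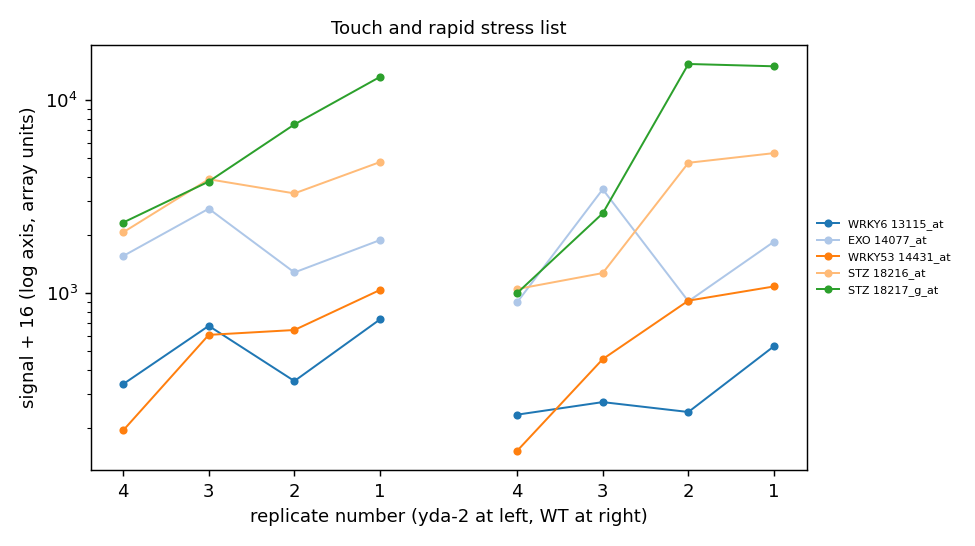
Signal plus 16 (log axis, array units) of the 5 tested probe sets of the touch and rapid stress list, for the arrays of yda-2 and then WT, each in the order 4, 3, 2, 1; lines only join arrays of a genotype. Every line is lower at replicate 4 than at replicate 3, as in WRKY53 with 178.4 against 592.5 in yda-2 and 136.4 against 439.6 in WT.

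Of the 15 lower members, 5 had a mean signal of at least 10000 on the arrays of replicates 2 and 1, a limit chosen after the values were seen. Brightness here is a property of a probe set and not the level of its transcript against another. PSAE-1 (AT4G28750), which encodes a stromal subunit of photosystem I, is the one with a name. Its probe set 18090_s_at was at 368.7, 990.8, 12605.8 and 26841.6 in yda-2 replicates 4, 3, 2 and 1. In WT it was at 181.7, 2777.8, 15667.2 and 25100.6. Replicates 4 and 3 were both far below replicates 2 and 1 in either genotype, and differed from each other by -1.39 in yda-2 and -3.82 in WT on the log2 scale.

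The other probe sets of PSAE-1 did not share the 2-fold difference between replicates 4 and 3. Their signals in replicates 4 and 3 also lay below those in replicates 2 and 1 in both genotypes, but less far. Probe set 18088_i_at was at 4696.6, 4806.4, 16187.4 and 14994.5 in yda-2 and at 5243.8, 7848.2, 10449.2 and 17871.0 in WT, and 18089_r_at was at 4837.5, 5057.0, 12596.0 and 6090.5 in yda-2 and at 5257.4, 3706.3, 7451.1 and 7354.7 in WT. Their replicate 4 minus replicate 3 differences were -0.03 and -0.06 in yda-2 and -0.58 and 0.50 in WT. PSAE-1 is thus a member by 1 of its 3 probe sets, and its probe sets do not give the same answer on replicates 4 and 3.

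The other members of the bright set, 4 in number, have no gene name and showed the same order of replicates 4 and 3. Probe set 14726_s_at was at 0.0, 2038.4, 9780.6 and 23103.9 in yda-2 replicates 4, 3, 2 and 1 and at 1.7, 3579.2, 11787.6 and 19826.2 in WT. Probe set 16035_at was at 148.0, 427.0, 13342.9 and 29060.8 in yda-2 and at 419.8, 1344.4, 19402.8 and 24942.2 in WT. In 13218_s_at the signals were 311.0, 2664.1, 12379.5 and 21888.7 in yda-2 and 2743.5, 6168.9, 15765.4 and 23823.3 in WT. In 16044_s_at they were 1175.1, 2635.3, 6710.3 and 16669.7 in yda-2 and 940.5, 7891.2, 21494.4 and 16281.2 in WT. All 4 were lowest in replicate 4, then in replicate 3, and brighter in replicates 2 and 1. Probe set 15108_s_at, not in the bright set by its mean but above 10000 in replicate 1 of both genotypes, was likewise at 0.0 in yda-2 replicate 4 and at 1.7 in WT replicate 4, with 59.9, 198.4 and 14452.8 in yda-2 replicates 3, 2 and 1 and 1750.4, 6073.8 and 13260.9 in WT. A signal of 0.0 has no detection call here, and no fold is given against it.

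These members were part of a wider set. On the arrays of replicates 2 and 1, 116 tested probe sets had a mean of at least 10000. Of the 116, 25 were under 3000 in replicate 4 in both genotypes, 5 of them members. The limit of 3000 was also chosen after the values were seen. Averaged over the arrays of replicates 4 and 3, the 5 members ranged from 584.8 to 3161 (median 1405), and the 111 that were not members from 290.0 to 7416 (median 5151). The rule chose the members on these arrays, so nothing is read from the members' low values there. One of the 111 was LHCB4.1 (15995_at), of the light-harvesting antenna, at 382.9, 203.0, 10213.4 and 27755.4 in yda-2 and 186.4, 2248.3, 21024.5 and 24003.8 in WT. RCA (15949_s_at), which encodes Rubisco activase, was at 1717.0, 1549.0, 14655.2 and 19367.7 in yda-2 and 836.9, 7589.7, 22443.6 and 18105.7 in WT. Both were low in replicates 4 and 3 as the members were, but in yda-2 their replicate 4 signal was above that of replicate 3. Of 13 photosynthesis probe sets tested, from 10 genes, 18090_s_at was the only member. Past 2-fold downward were 1 in yda-2 and 4 in WT, 18090_s_at among them by the rule. Over all 4788 tested probe sets, 82 passed downward in yda-2 and 113 in WT. The medians of the list were -0.13 in yda-2 and -0.58 in WT, against 0.09 and 0.03 over all tested probe sets. The highest signal of an array moved with the signals of the bright probe sets, and its part in them was not tested.

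**Figure D3:**
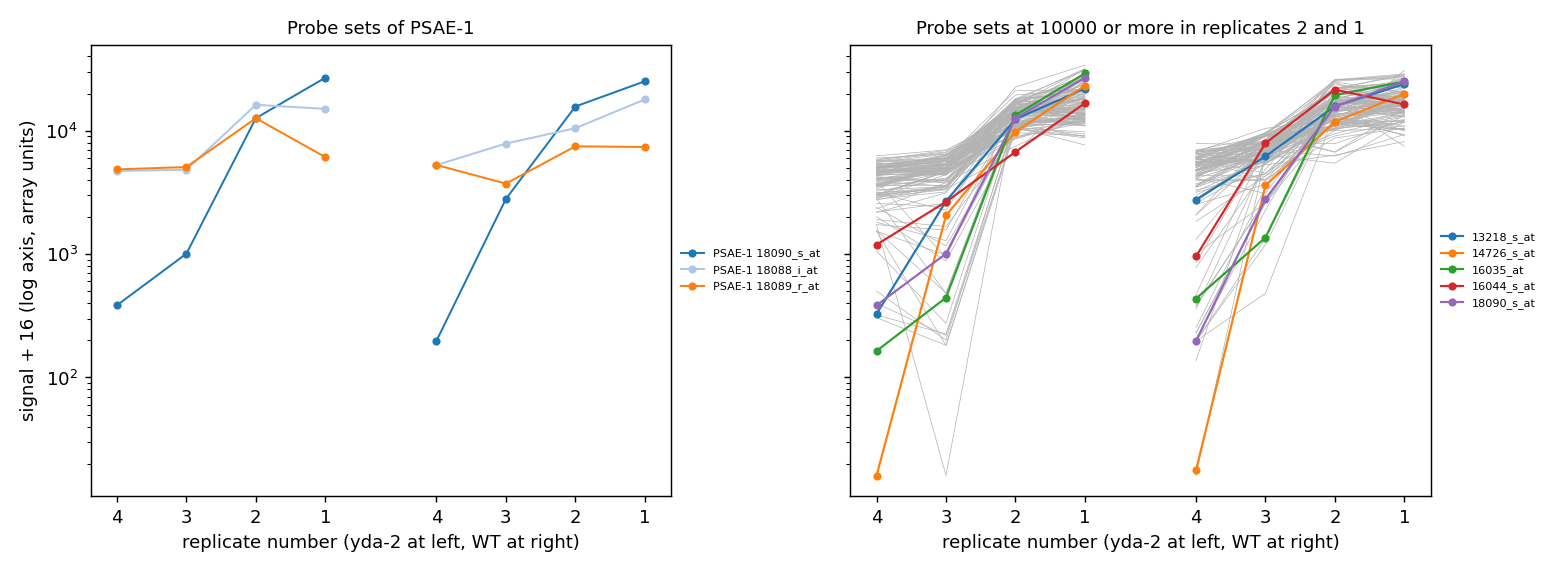
Signal plus 16 (log axis, array units) on the arrays of yda-2 and then WT, each in the order 4, 3, 2, 1, for the 3 probe sets of PSAE-1 (left) and for 116 probe sets with a mean of at least 10000 in replicates 2 and 1 (right, 5 members in colour, 111 others in grey). PSAE-1 18090_s_at is at 368.7 in yda-2 replicate 4 and 181.7 in WT replicate 4, against 990.8 and 2777.8 in replicate 3, while 18088_i_at is at 4696.6 and 5243.8 in replicate 4, against 4806.4 and 7848.2 in replicate 3.

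Of the remaining lower members, 16536_at recurred between the other harvests. It was at 593.9, 1766.2, 502.6 and 1400.0 in yda-2 replicates 4, 3, 2 and 1 and at 436.9, 1597.8, 939.1 and 3349.7 in WT. Replicates 3 and 1 were high and replicates 4 and 2 low in both genotypes. Probe set 12712_f_at had the same alternation, at 30.6, 295.0, 20.4 and 166.8 in yda-2 and 30.0, 99.9, 14.3 and 149.0 in WT. The last, 16609_at, was at 272.8, 743.5, 609.2 and 692.5 in yda-2 and 308.7, 944.2, 926.2 and 1320.3 in WT. Replicate 4 was its lowest array in both, and yda-2 was below WT in all 4 pairs, with differences between replicates 4 and 3 of -1.39 in yda-2 and -1.56 in WT.

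The median difference of the 15 lower members was -1.55 in yda-2 and -1.56 in WT. Apart from 14726_s_at and 15108_s_at, whose replicate 4 signals of 0.0 and 1.7 leave the size to the pseudocount, the differences ran from -3.03 to -1.01 in yda-2 and from -3.82 to -1.04 in WT. Replicate 4 was the lowest of 4 arrays in both genotypes for 11 of the 15, against 6.47% of all tested probe sets, again with a share owed to the rule.

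Replicates 2 and 1 took no part in the 2-fold thresholds of the rule, only in its filter on mean signal and its overlap of ranges. For the higher members, replicate 2 was above replicate 1 in both genotypes in 9 of 11, against 31.4% of all tested probe sets. For the lower members, replicate 2 was below replicate 1 in both genotypes in 11 of 15, against 25.6%. The median replicate 2 minus replicate 1 difference of the higher members was 0.72 in yda-2 and 0.24 in WT, beside -0.002 and 0.11 over all tested probe sets. That of the lower members was -0.82 in yda-2 and -0.60 in WT. Within the lower group, 4 of the 5 bright members and 7 of the other 10 were lower in replicate 2 in both genotypes. The highest signal of an array was lower in replicate 2 too, at 22519 against 33920 in yda-2 and 26071 against 30768 in WT. Its part in the count of bright members was not tested. No share was taken for the 111 bright probe sets that are not members, so whether the 4 of 5 is particular to the group was not examined. Among those 111, LHCB4.1 (15995_at) was lower in replicate 2 too, by -1.44 in yda-2 and -0.19 in WT. RCA (15949_s_at) was lower in yda-2 at -0.40 but higher in WT at 0.31. Members are probe sets on shared arrays and not replicates, so these shares carry no test.

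At the size the rule asks of replicates 4 and 3, fewer members differed. Between replicates 2 and 1, 3 of the 26 members were at least 2-fold apart the same way in both genotypes, all lower in replicate 2, against 3.15% of all tested probe sets (1.61% higher and 1.55% lower). They were 15108_s_at, 16536_at and 12712_f_at. In replicate 2, 12712_f_at was at 20.4 in yda-2 and 14.3 in WT, near the pseudocount, so the size of its difference depends on the pseudocount. With the filter at a mean signal of 200 the count was 2 members. On the replicate 2 arrays, 29 tested probe sets in yda-2 and 40 in WT were at or under the pseudocount. The other arrays had 3 to 6 such probe sets. The exceptions to the common direction were also clear in size. AT2G15830 was higher in replicate 2 by 1.38 in yda-2 and 0.55 in WT, 12364_at by 0.71 and 1.80, while 13161_at in the higher group had -0.51 and -0.91.

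**Figure D4:**
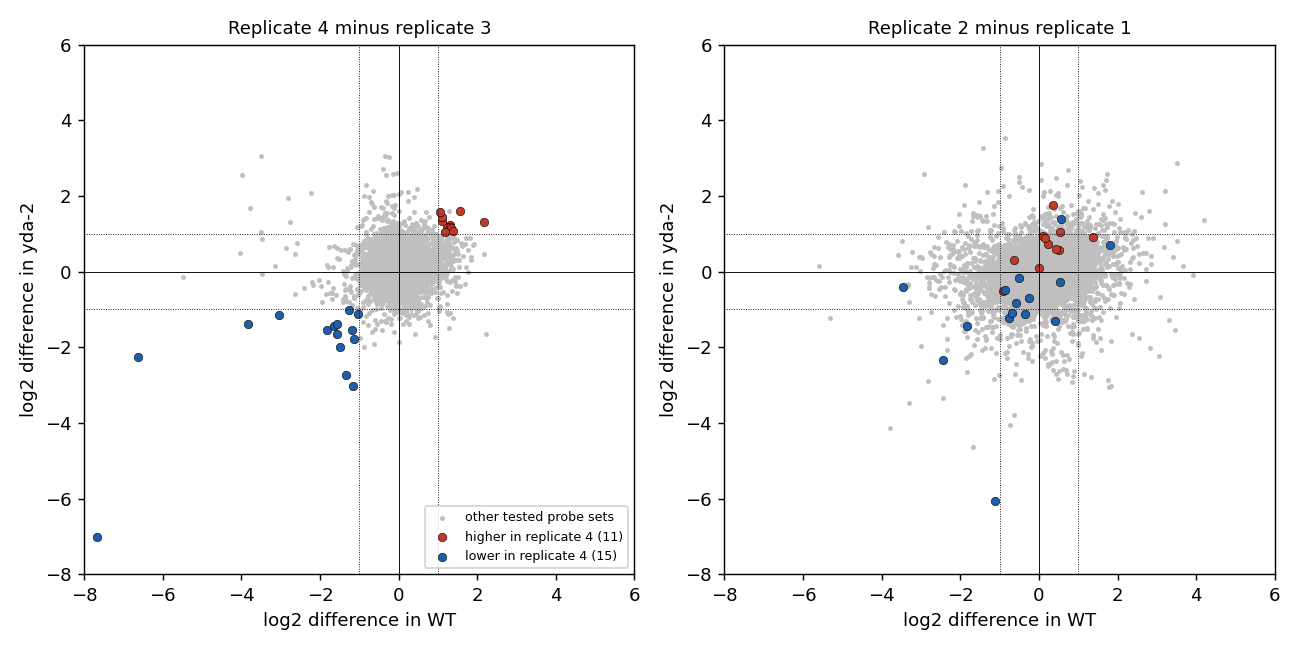
Log2 difference in yda-2 (vertical axis) against that in WT (horizontal axis) for each tested probe set, for replicate 4 minus replicate 3 (left) and replicate 2 minus replicate 1 (right), with the 11 higher and 15 lower members in colour and dotted lines at 2-fold. In the left panel the rule places the members in the corners, and in the right panel 9 of 11 higher members lie above 0 in both genotypes and 11 of 15 lower members lie below 0 in both.

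In limma on the 4 arrays of replicates 2 and 1, with genotype as a term, 4 of the 26 members passed an adjusted p of 0.05 for replicate 2 minus replicate 1, against 2.28% of all tested probe sets (109, of which 25, or 0.522%, higher and 84, or 1.75%, lower). All 4 were lower in replicate 2 and belong to the lower group. Probe set 16536_at had a log2 difference of -1.63 (SE 0.33, adjusted p = 0.000254), with -1.45 in yda-2 and -1.82 in WT. Probe set 14726_s_at had -0.99 (SE 0.27, adjusted p = 0.0134) and PSAE-1 18090_s_at had -0.88 (SE 0.26, adjusted p = 0.0374). In 15108_s_at the fitted difference of -3.60 had an adjusted p of 1.37e-31 in limma, but the difference was -6.08 in yda-2 and -1.12 in WT, a spread that this p does not take in. With 1 residual degree of freedom per probe set, limma took the SE from the signal level alone (an infinite prior). At an unadjusted p under 0.05 were 10 members, against 11.5% of all tested probe sets. Without that trend, after median centring, or with all 8 arrays in the limma fit, the number of members called was 0, with 8, 10 and 11 of the 26 at an unadjusted p under 0.05, against 9.75%, 10.6% and 14.2% of all tested probe sets.

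Between genotypes, in limma over all 8 arrays without the pairing, 0 of the 26 members passed for yda-2 minus WT, against 0.0418% of all tested probe sets, and 2 members were at an unadjusted p under 0.05, against 3.22%. With the pairs as a block, 0 members passed in limma too, against 0.188% of all tested probe sets, with 9 members at an unadjusted p under 0.05, against 7.1%. The overlap of genotype ranges removed 0 probe sets. The rule did choose members whose replicates 4 and 3 differed the same way in both genotypes. That choice bears on the spread in these fits, above all with the block, so nothing is read from the counts. The widest genotype differences were 1.62 for AT5G64120 (SE 0.69) and 1.51 for 16431_at (SE 0.57), both above 0 in yda-2 minus WT, and -2.35 for 15108_s_at (SE 2.18). The size for 15108_s_at depends on the pseudocount, with a signal of 0.0 in yda-2 replicate 4. That for AT5G64120 includes the 10.3 of WT replicate 2, also below the pseudocount. Among the higher members 3 of 11 had yda-2 above WT in all 4 pairs and 2 had it below in all 4, and among the lower members the numbers were 3 and 2 of 15, where 9.44% and 7.10% of all tested probe sets did so. The 3 of 11 include 16431_at and 16432_g_at, which may be the same transcript.

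Of 21 gene lists of pathways and stress responses, 15 had a tested gene and 3 had a member, each with 1: EXPA8 in cell wall growth, WRKY53 in touch and rapid stress, and PSAE-1 in photosynthesis. The 12 lists with tested genes and no member, from 1 to 6 genes each, included clock output, cold and drought, jasmonate and wounding, and redox genes. The annotation names no gene for 2713 of the 4788, so that list genes could be among them.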

How the data were processed

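Shoot RNA of 8 samples was measured on Affymetrix AtGenome1 arrays. Per the labels, the authors scaled each array to an average of 500, and what they deposited is a linear signal intensity for every probe set, without calls of presence. The method that summarised the probes is not given in the sources used here. Precision is limited by the number of arrays.

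The 50 control probe sets were left out, those averaging 100 or more were kept, and log2(signal + 16) was taken. On that scale dim changes are understated. Linear models were fitted under R 4.3.3 by limma 3.58.1, with moderated variances that follow a trend on signal level, and two-sided p-values were adjusted by Benjamini-Hochberg over all 4788 tested probe sets, with a threshold of 0.05. Members and gene lists were chosen with earlier results of these data known. Named are the 9 members with 1 gene, members on a list or called, the first 3 unnamed in each direction, and those next to the threshold; 12712_f_at, LHCB4.1, RCA and the rest of the members were added after their values were seen.

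Names come from the platform's annotation, updated to symbols of TAIR10.1, for 2035 tested probe sets with 1 gene; 40 have several and 2713 none. Replicate numbers were taken to pair the arrays, since the labels give different harvest times and every pair's deviations correlated above 0.1. For replicates 4 and 3 this is an assumption, since their differences correlated at 0.0506 between genotypes. The fits were run on simulated data with 200 changed probe sets. For replicate 2 minus replicate 1, 15.9% of 2-fold and 64.8% of 4-fold changes were recovered, with 6.27% of calls false. For yda-2 minus WT these were 19.9%, 87.5% and 4.87%. The simulated noise was drawn from the fitted variances, so this cannot check the SE itself. Alternatives covered the pseudocount, the filter, the scaling between arrays, the variance prior, the block and single arrays. Figures were drawn with matplotlib 3.10.9.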

Additional observations from a re-analysis of the deposited data

Results flagged for a closer look

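Among the members, 2 values lay far from the other 3 arrays of their genotype in the 52 sets of 4 examined on the log2 scale. AT2G38740 (14972_at) in WT replicate 3 was at 52.0, and 15633_s_at in WT replicate 4 was at 6107.8. Chance alone gives about 1 in 20 such sets where values were not selected. Both members are in the higher group, where the rule asked for replicate 4 above replicate 3, so that rate does not apply to them.

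For 3 members the replicate 2 minus replicate 1 difference had opposite signs in the genotypes, each from 1 array per side, and the difference between genotypes was not tested. Probe set 14999_at had 0.30 in yda-2 and -0.64 in WT. Probe set 16044_s_at had -1.31 in yda-2 and 0.40 in WT. AT2G18690 (17894_at) had -0.29 in yda-2 and 0.53 in WT.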

How the results depend on the processing

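The rule gave 16 members with a pseudocount of 64 and 43 without a filter on low signal. The split into higher and lower members, 11 and 15, was 8 and 18 after median centring and 17 and 20 after quantile normalization, with 23 of the 26 members kept in each. The median replicate 2 minus replicate 1 difference of the lower members was -0.37 after quantile normalization. It lay between -0.82 and -0.60 within 1 genotype, and that of the higher members between 0.24 and 0.72. The number of members called between replicates 2 and 1 was 2 without a filter and 0 after median centring, without the intensity trend or with all 8 arrays, and 0 to 3 when 1 array was left out of the 8, being 0 without yda-2 replicate 1 or WT replicate 1. Over all tested probe sets the count of 109 became 5 after median centring, 2 without the trend and 2 with all 8 arrays, and with 1 array left out it ranged from 0 (yda-2 replicate 1, WT replicate 1) to 496 (yda-2 replicate 2). The prior degrees of freedom were infinite in the fit that called 109, against 9.47 after median centring and 7.68 without the trend. WT replicate 2 left out gave 109.

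Between genotypes, the replicate block left 0 members called and gave 9 over all tested probe sets, against 2 without it. Replicate numbers were taken to pair the arrays, and the block changed no other call on the members. Without the block the count was 0 with a pseudocount of 1, a filter of 200, median centring or quantile normalization, 1 without a filter, and 0 to 2 on leaving out 1 array, being 0 without any 1 of the yda-2 replicates, WT replicate 3 or WT replicate 4 and 1 without WT replicate 2. Members at or under a signal of 16 on some array, 4 of 26, have sizes set by the pseudocount.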

Other observations

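Agreement between the genotypes depended on which replicates were compared. The number of probe sets at least 2-fold apart the same way in both genotypes was 27 for replicate 4 against 3, with 16 opposite, and 151 for replicate 2 against 1, with 85 opposite. It was 423 for replicate 4 against 1, with 3 opposite, 256 for replicate 3 against 1, with 11 opposite, 408 for replicate 4 against 2, with 74 opposite, and 436 for replicate 3 against 2, with 90 opposite. The pairs with the most opposite differences, 74 to 90, all hold replicate 2.

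PSAE-1 18090_s_at had the same WT replicate 4 signal, 181.7, as 16417_s_at and 16418_s_at, which are also among the 116 brightest probe sets of replicates 2 and 1. On the other 7 arrays 0 of these 116 probe sets shared a signal. Members 14726_s_at and 15108_s_at both stood at 0.0 in yda-2 replicate 4 and at 1.7 in WT replicate 4.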
